A study of Mus musculus with 8 samples.

Results

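Myeloid C-type lectin receptors are the 10 genes Clec4a1, Clec4a2, Clec4a3, Clec4d, Clec4e, Clec4n, Clec5a, Clec7a, Clec10a and Clec12a, chosen by symbol from the 41018 genes of a comparison of CD11b+ bone marrow (BM) cells. CD11b is an integrin subunit of myeloid cells such as neutrophils and monocytes, and CD11b+ cells were pulled with magnetic beads from the hind leg marrow of female mice (C57BL/6, aged 5 to 8 weeks). PC-EV-educated mice (4 samples) received 5 µg of extracellular vesicles of PAN02 cells, a mouse pancreatic adenocarcinoma line, by retro-orbital injection 3 times per week for 3 weeks. Control mice (4 samples) received PBS by the same route, although their treatment label reads untreated. Animals were pooled for each point of the qPCR of this comparison, and for the sequenced samples the sources used here do not say whether each was a single mouse or a pool. All 10 genes had a p-value, as did 28225 genes in all. Itgb2, the partner subunit of CD11b, had a level of 439, where the level is the authors' Max group mean, the larger of the means of both groups, while the CD11b gene itself was not analysed here.

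C-type lectin receptors carry an extracellular fold that binds sugars, lipids or proteins, often with the help of calcium. On neutrophils, monocytes and macrophages they sense fungi, mycobacteria and material of dying cells. Activating members signal through the kinase Syk and the adaptor Card9, either by a motif in their own tail or by a partner chain such as the Fc receptor gamma chain or DAP12. Inhibitory members carry a tyrosine motif that recruits the phosphatases SHP-1 and SHP-2.

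The members share a genomic neighborhood. Of the 10 genes, 9 lie on chromosome 6 (GRCm38), and 6 of these fall in a stretch of 368 kb from Clec4a1 (122921848 to 122934619, plus strand) to Clec4e (123281789 to 123289870, minus strand). Clec12a (129342691 to 129365303) and Clec7a (129461591 to 129472779) lie in a second group on chromosome 6, and Clec5a lies apart at 40574894 to 40585821. Clec10a is the exception, on chromosome 11 (70156197 to 70170834). Their letters were however distinct: no run of 75 bases was shared between transcripts of any pair of members. Clec4a2 and Clec4a3 had the most alike coding sequences, at 77.2% identity over aligned bases, followed by Clec4a1 and Clec4a2 at 75.1%, against a median of 65.3% over the 45 pairs. Only Clec4a2 and Clec10a shared runs of 75 bases with any other gene, for 3.24% and 4.44% of their runs, with Clec4a4 and Clec4b1 in the first case and Mgl2 in the second. No other gene of the table overlapped a member.

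The bases before the start sites of a set of neighboring members are shown because they are the members at the ends of the stretch, where the lowest and the highest log2 fold changes of the family were found. Each run gives the 250 bases upstream of a RefSeq start (GRCm38.p6), read 5′ to 3′ along the gene, with every match to the purine-rich core GAGGAA, bound by the myeloid factor PU.1 and other ETS factors, in capitals on either strand. The windows are chr6:122921598-122921847 (Clec4a1, plus strand), chr6:122952265-122952514 (Clec4a3, plus strand), chr6:123261857-123262106 (Clec4d, plus strand) and chr6:123289872-123290121 (Clec4e, minus strand).
Clec4a1 upstream: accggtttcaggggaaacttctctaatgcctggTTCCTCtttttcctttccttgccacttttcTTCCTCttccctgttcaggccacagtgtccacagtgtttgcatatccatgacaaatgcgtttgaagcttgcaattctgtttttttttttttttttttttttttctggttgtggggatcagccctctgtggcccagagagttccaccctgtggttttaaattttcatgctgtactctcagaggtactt
Clec4a3 upstream: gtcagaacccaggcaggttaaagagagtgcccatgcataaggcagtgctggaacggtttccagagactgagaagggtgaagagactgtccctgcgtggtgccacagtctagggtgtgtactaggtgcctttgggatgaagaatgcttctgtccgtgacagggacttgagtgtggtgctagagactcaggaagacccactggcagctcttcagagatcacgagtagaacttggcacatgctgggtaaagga
Clec4d upstream: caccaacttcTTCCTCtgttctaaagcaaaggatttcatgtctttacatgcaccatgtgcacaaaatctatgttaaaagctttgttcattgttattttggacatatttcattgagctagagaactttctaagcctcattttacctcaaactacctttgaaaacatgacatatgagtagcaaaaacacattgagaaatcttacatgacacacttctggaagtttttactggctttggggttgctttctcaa
Clec4e upstream: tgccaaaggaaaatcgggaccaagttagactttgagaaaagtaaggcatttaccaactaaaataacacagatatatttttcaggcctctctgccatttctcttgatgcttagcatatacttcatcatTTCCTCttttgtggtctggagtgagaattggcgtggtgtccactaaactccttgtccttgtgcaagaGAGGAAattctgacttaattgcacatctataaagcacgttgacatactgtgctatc

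Windows were found for 8 of the 10 members, 10 windows in all. GAGGAA on either strand was present in 8 of the 10 windows, against 23.3% of 32851 windows of all genes. The 2 windows of Clec7a overlap and hold the same match, and those of Clec4a3 overlap as well. By gene, GAGGAA was present in 7 of the 8 members with a window. In Clec4e it began 123 and 56 bases before the start, in Clec4a1 217 and 187 bases before it, and in Clec4d 240 bases before it. The shown Clec4a3 window held none, while its second RefSeq window held 1 match 50 bases before the start. The pattern TGANTCA, in which N is any base, includes the AP-1 sites TGACTCA and TGAGTCA. It was found in 1 of the 10 windows, that of Clec12a, against 6.75% of all windows. The Clec12a match reads TGAATCA, which is neither of these AP-1 sites. The C/EBP motif TTGCNNAA was found in 2, those of Clec4e and Clec12a, against 9.56%. In the member windows 0 matches of different motifs overlapped. A match is a description of letters and not of binding.

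Levels of the members fell into a high and a low set. The unit of the level is not named with the values, which were found to be per length and per library, as an RPKM is. Clec4d, at 58.5, and Clec7a, at 55.4, were the most abundant. Clec12a, Clec5a and Clec4a2 followed at 49.1, 48.9 and 44.3. These 5 genes stood at or above the 97.6th percentile of the 28225 genes. Clec4e at 20.1, Clec4a3 at 18.7 and Clec4a1 at 13.9 formed a middle step. Clec4n at 2.11 and Clec10a at 1.95 were the lowest. No spread between samples is given for these means, so the order of close neighbors such as Clec12a and Clec5a is not resolved. From the inferred value of a single read in these libraries, Clec12a rested on 45850 to 58123 reads over the 4 samples of the group with the larger mean, Clec4e on 16852 to 21362, Clec10a on 954 to 1210, and Clec4n on 506 to 641.

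**Figure D1:**
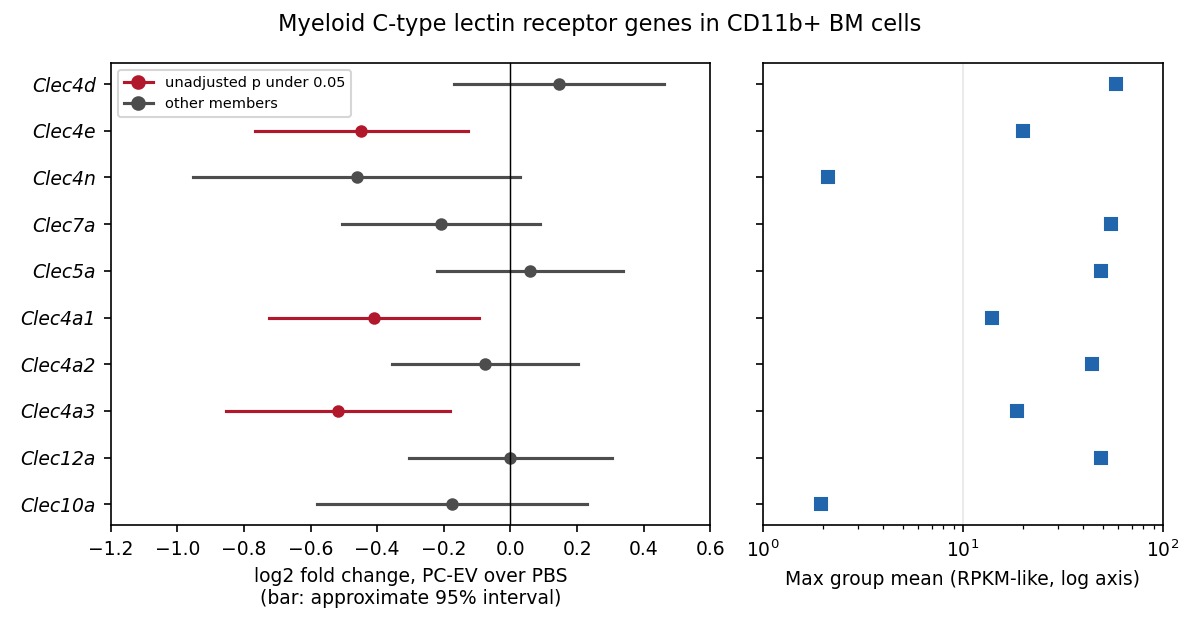
Left, log2 fold change of each member, PC-EV over PBS, with an approximate 95% interval read back from the p-value. Right, its Max group mean on a log axis. Clec4a3, Clec4e and Clec4a1 have intervals below 0, and the intervals of the other 7 hold 0.

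After PC-EV education no C-type lectin receptor gene of this family passed the false discovery rate, and Clec4a3, Clec4e and Clec4a1 had the smallest p-values. Their log2 fold changes in the deposited table were −0.52, −0.45 and −0.41, that is 69.8%, 73.3% and 75.3% of the PBS level. Of the 10 members 7 lay below 0 and 3 above, with a median of −0.19, whereas over the 9226 genes with a level of at least 1, which all members pass, 48.3% lay below 0 and the median was 0.00. None passed an adjusted p of at most 0.05 (Benjamini-Hochberg over 28225 genes), a threshold that 0.23% of all genes passed as lower in PC-EV samples. At an unadjusted p under 0.05, 3 of the 10 were lower in PC-EV samples, against 2.95% of all genes and 4.58% of genes with a level of at least 1. None of the 10 was higher, against 1.52% of those genes. With the errors of these genes, a measured log2 fold change of 0.54 to 0.95, depending on the gene, would have been needed to pass the adjusted threshold. Smaller measured changes could thus not be called, and the size of true change that could be detected was not estimated. In these bulk samples, fewer cells of a type and less RNA per cell cannot be told apart.

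The members of higher level lay nearer to 0 as a set. The 5 members with a level of at least 44.3 spanned −0.21 to 0.15 on the log2 scale, with a median of 0.00. The 5 with a level of at most 20.1 ranged from −0.52 to −0.18, at a median of −0.45. The sets did not overlap except that Clec7a, at −0.21, lay below Clec10a, at −0.18. This split was seen in the values and was not tested.

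**Figure D2:**
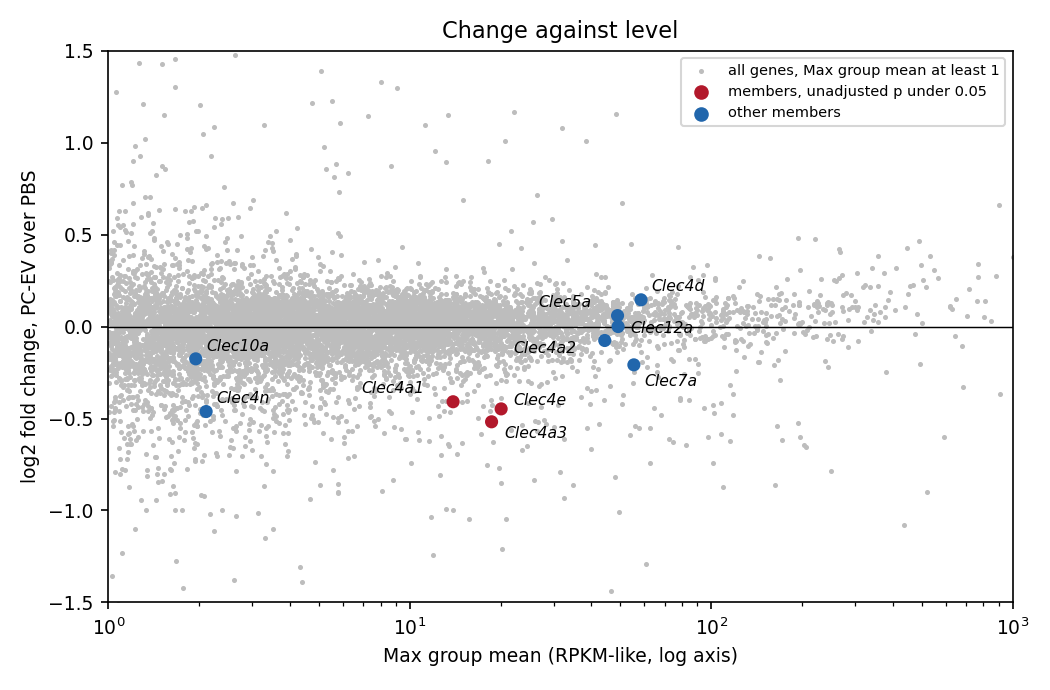
Log2 fold change, PC-EV over PBS, against Max group mean on a log axis for all genes with a mean of at least 1 (gray) and the 10 members. The 5 most abundant members lie between −0.21 and 0.15, and Clec4a1, Clec4a3 and Clec4e between −0.52 and −0.41. The axes leave out 62 genes, beyond a log2 fold change of 1.5 in either direction or a level of 1000.

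Among the activating receptors, Clec4e stood lowest by p-value. It encodes Mincle, a receptor for mycobacterial cord factor and for a protein released by dying cells. Its log2 fold change in the deposited table was −0.45 (approximate 95% interval −0.77 to −0.13, unadjusted p = 0.00612, adjusted p = 0.535). Clec4d encodes MCL, which pairs with Mincle on the cell surface, and its gene ends 6.52 kb before that of Clec4e. It had the highest log2 fold change of the family, 0.15, with an interval of −0.17 to 0.46 (unadjusted p = 0.364). The intervals of these neighbors overlapped by 0.04 on the log2 scale, and the difference between the genes was not tested.

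Clec4n encodes Dectin-2, a receptor for fungal mannans that signals through the Fc receptor gamma chain. Its log2 fold change was −0.46, about that of Clec4e, but its approximate interval of −0.95 to 0.03 was the widest of the family (unadjusted p = 0.0645). Clec7a encodes Dectin-1, the receptor for beta-glucans of yeast walls, which signals by a motif in its own tail. It had a log2 fold change of −0.21 with an interval of −0.51 to 0.09 (unadjusted p = 0.171). Clec5a encodes MDL-1, a partner of DAP12 on neutrophils and monocytes, and had a log2 fold change of 0.06 with an interval of −0.22 to 0.34. For Clec5a a level under 85.9% or over 126% of PBS thus lies outside the interval.

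The Clec4a members differed in value, but their intervals overlapped and the differences were not tested. Clec4a2 encodes DCIR, which carries an inhibitory motif, with a deposited log2 fold change of −0.08 and an interval of −0.35 to 0.20 (unadjusted p = 0.595). Clec4a3 and Clec4a1 encode DCIR3 and DCIR4, relatives that lack this motif. Clec4a3 had the lowest value of the family, −0.52 (interval −0.85 to −0.18, unadjusted p = 0.00261, adjusted p = 0.334). Clec4a1 followed the same direction at −0.41 (interval −0.72 to −0.09, unadjusted p = 0.0111, adjusted p = 0.715). Among genes with a level of at least 1, the log2 fold change of Clec4a3 sat at percentile 2.57, that of Clec4e at percentile 3.53 and that of Clec4a1 at percentile 4.28. Clec12a, the other inhibitory receptor, binds uric acid crystals of dead cells. Its log2 fold change was 0.00, with an interval of −0.30 to 0.30, which spans 81.0% to 123% of PBS.

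Clec10a encodes MGL1, an endocytic receptor for galactose and N-acetylgalactosamine that marks macrophages and dendritic cells. Its log2 fold change was −0.18 with an interval of −0.58 to 0.23 (unadjusted p = 0.397). Its near copy Mgl2, with a level of 3.67, had a log2 fold change of 0.23 (unadjusted p = 0.232), and reads of their shared runs could have been assigned to either gene.

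Neighbors in the chromosome 6 stretch did not all share a direction. Of its 9 genes with a p-value, the first pair, Clec4a1 and Clec4a3, lay at −0.41 and −0.52. Clec4b1, with a level of 1.66, was at −0.48 (unadjusted p = 0.143). Clec4a2 and Clec4b2 came next at −0.08 and −0.01, then Clec4n at −0.46, Clec4d at 0.15 and Clec4e at −0.45. Clec4a4 was at 0.48, but its level of 0.28 left an approximate standard error of 0.64. In genomic order, 7 of the 9 genes lay below 0, and Clec4a4 and Clec4d above.

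**Figure D3:**
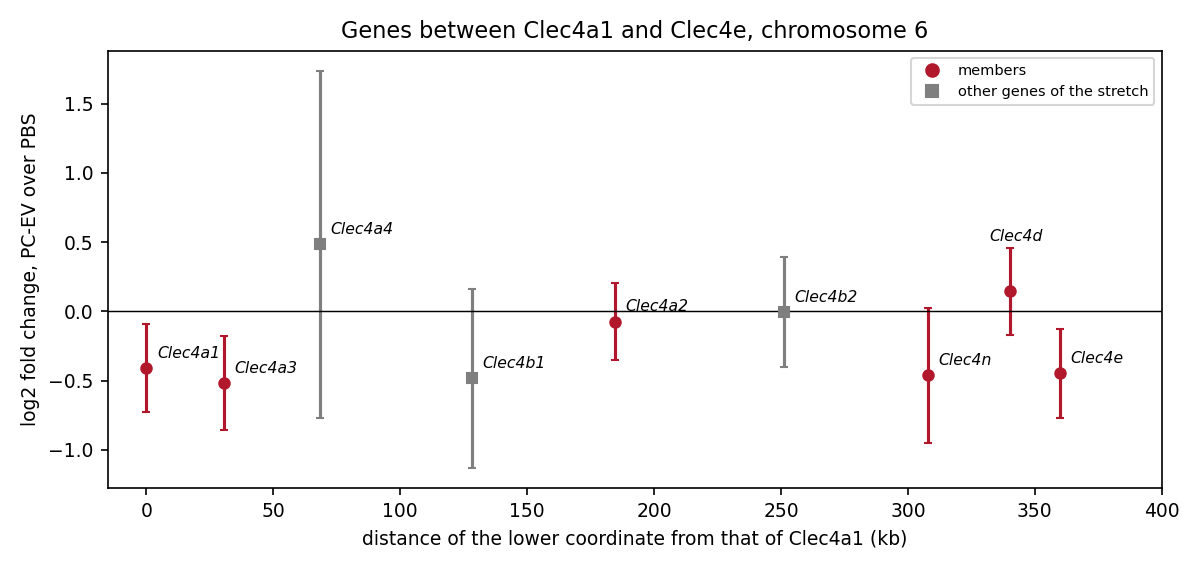
Log2 fold change, PC-EV over PBS, with approximate 95% intervals for the 9 genes with a p-value from Clec4a1 to Clec4e, by distance from Clec4a1 in kb. Circles are the 6 members and squares the other genes. Clec4d, at 0.15, stands between Clec4n, at −0.46, and Clec4e, at −0.45.

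Other C-type lectin genes reached lower values than the members, and only Mrc1 among them passed the adjustment. Of 35 listed genes, 23 had a level of at least 0.1. Of these, 15 lay below 0 and 8 above, at a median of −0.12, and an unadjusted p under 0.05 was reached by 7 lower genes, against 4.97% of the 14153 genes of that level, and by no higher one, against 1.67%. This filter keeps a gene on its larger mean. Without it, 24 of the 34 genes with a p-value lay below 0 and 10 above, at a median of −0.14. Mrc1, the mannose receptor of macrophages, fell, with a log2 fold change of −0.74 (adjusted p = 0.00334 by Benjamini-Hochberg). Cd69, an early activation marker that retains leukocytes in tissue, came closest after it at −0.90 (adjusted p = 0.0578). Cd209f was at −0.92, Cd302 at −0.53, Clec2i at −0.52, Klrk1 at −0.76 and Klrb1b at −1.37, each at an unadjusted p under 0.05 and an adjusted p over 0.2. The abundant genes Clec2d, Ly75 and Olr1 had log2 fold changes of −0.08, 0.06 and −0.04.

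Genes of the proteins that carry the signal of these receptors had a median near 0. Of 16 adaptor and signaling genes 7 lay below 0 and 9 above, with a median of 0.02, and none passed an adjusted p of 0.05. Fcer1g, the Fc receptor gamma chain used by Mincle, MCL and Dectin-2, had a level of 271, with a log2 fold change of 0.11 and an approximate standard error of 0.13 (unadjusted p = 0.416). Tyrobp, which encodes DAP12, had a level of 806, with a log2 fold change of 0.05 (unadjusted p = 0.738). Syk and Card9 were at 0.07 and 0.03, and the Src family kinase Fgr was at 0.04. Lat2, a linker of the plasma membrane, was the only gene of this list at an unadjusted p under 0.05, with a log2 fold change of −0.37 (adjusted p = 0.916). The phosphatases Ptpn6 (SHP-1), Inpp5d (SHIP-1) and Ptpn11 (SHP-2) had log2 fold changes of 0.04, 0.00 and 0.05.

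Markers of macrophages and monocytes included genes that passed the adjusted threshold in the same comparison, while neutrophil and dendritic cell markers included none. All 15 macrophage markers lay below 0, at a median of −0.75, and 6 passed the adjusted threshold as lower in PC-EV samples. Of 12 classical monocyte markers 9 lay below 0, at a median of −0.46, and 2, Ccr2 and Klf4, passed it as lower. Over all 28225 genes with a p-value, 65 (0.23%) passed it as lower. Of the 9226 genes with a level of at least 1, which all these macrophage and monocyte markers reach, 53 did. All 14 neutrophil markers lay above 0, with log2 fold changes of 0.02 to 0.34 and a median of 0.13, and none passed the adjustment. The 10 dendritic cell markers with a level of at least 0.1 had a median of −0.11. Summed over the list, the level was 94552 for neutrophil, 3288 for monocyte, 307 for macrophage and 185 for dendritic cell markers. Chil3 alone gave 2693 of the monocyte sum and Cd74 gave 110 of the dendritic cell sum. The sums thus do not measure numbers of cells. No marker of these lists was at 0. Medians of the markers of other cells lay below 0 as well, for markers with a level of at least 0.1. They were −0.47 over 10 erythroid, −0.49 over 9 B cell, −0.45 over 7 T and NK cell and −0.14 over 10 eosinophil, basophil and mast cell markers. All 10 erythroid markers lay below 0, while 2 markers of each of the other lists lay above it. None of these markers passed the adjustment. The part of all these markers in the receptor values was not tested. Mrc1 stands in the macrophage list and the lectin list.

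**Figure D4:**
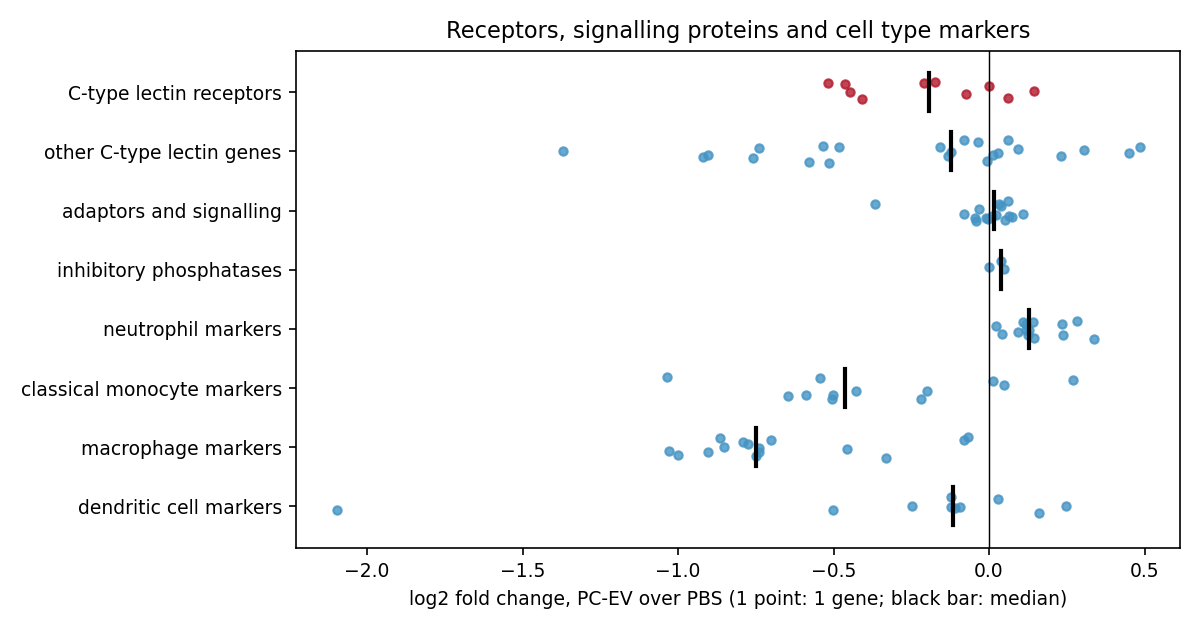
Log2 fold change, PC-EV over PBS, of single genes (points) by list, with the median as a black bar, for genes with a level of at least 0.1. The medians are −0.19 for the 10 C-type lectin receptors, 0.02 for adaptors and signaling genes, 0.13 for neutrophil, −0.46 for monocyte and −0.75 for macrophage markers.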

How the data were processed

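Stranded, ribosomal RNA-depleted libraries of CD11b+ BM cells were sequenced by the authors, mapped to GRCm38 and compared with a negative binomial generalized linear model in the manner of edgeR (also in the submitters' processing notes). Aligner, annotation and software versions are absent from the sources used here. The deposited processed files used here hold a comparison made by the authors, with for each gene a Max group mean, a log2 fold change, a linear fold change and p-values (unadjusted, false discovery rate and Bonferroni). Their log2 fold changes and p-values were used here because no values of single samples were at hand, so no model was fitted, the depth per sample is unknown, and no spread between samples is given. The p-values measure only the spread between these samples, which may be technical where samples came from a pool. The file of differentially expressed genes holds no member and was not used.

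The deposited Max group mean names no unit. Its values times exonic length (GENCODE vM21) fell, for 97.3% of 4415 low genes, within 0.01 of 7 steps of 4.67 to 5.92, taken as the value of 1 read in 1 library divided by 4. It was thus inferred to be per length and depth, and as it sums to 404642 it is not TPM. It is called an RPKM, with the authors' exact scaling not stated. Dividing by these steps gave the range of reads behind a mean, which covers no spread between samples.

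Benjamini-Hochberg adjustment was recomputed over the 28225 genes with a p-value, where the deposited rate spans all 41018 rows. An approximate standard error was the log2 fold change over the normal quantile of its p-value. The interval holds only if the p-value behaves as one of a Wald test. Both steps were run on simulated data whose p-values were made from normal errors. That run checks the code and could not test whether the deposited p-values behave as Wald ones. Coding sequences were aligned with Biopython 1.88. Promoter windows came from RefSeq (GRCm38.p6), read in Python 3.11.15 with pandas 2.3.3, scipy 1.17.1 and numpy 2.4.6. The members, lists, motifs and alternatives were chosen with earlier results of these data known. Named are all members, genes of the lectin, adaptor and phosphatase lists with an unadjusted p under 0.05 and up to 4 other abundant genes of each, up to 3 genes of a marker list, and, chosen after their values were seen, neighbors in the stretch, Mgl2, Syk, Card9, Itgb2 and killer cell lectin-like genes. Genes of this rule that are left out of the text are not reported here. Alternatives were the set of genes adjusted over, the threshold, centring, the summary and the filter on low values.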

Additional observations from a re-analysis of the deposited data

How the results depend on the processing

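No paired analysis was possible because the deposited table holds no values of single samples; for the same reason leaving out single samples was not run. No member passed an adjusted p of 0.05 with adjustment over all 41018 rows, over the 9226 genes with a level of at least 1, or by Bonferroni, and the smallest adjusted p over these alternatives, that of Clec4a3, ranged from 0.142 to 1. At an unadjusted p under 0.01 there were 2 members lower in PC-EV samples, and under 0.1 there were 4, against 3 under 0.05. The members' median of −0.19 was −0.20 after centring on the median of genes with a level of at least 1, −0.21 as a mean and −0.14 over the members with a level of at least 5. Centring shifted each member by 0.0045 and so turned the sign only of Clec12a, at 0.00. Of 22 settings over 11 other lists 1 moved a median by more than its genes' error: that of B cell markers was −0.49 over 9 genes and −0.19 over the 2 with a level of at least 1. Clec4n and Clec10a, the members with the fewest reads, had approximate standard errors of 0.25 and 0.21, against 0.14 to 0.17 for the others.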

Other observations

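Killer cell lectin-like receptor genes, C-type lectin relatives of which many are known from natural killer and T cells, were mostly of low level (the Max group mean) in these CD11b+ cells. With no filter on level, 24 of the 26 genes had a log2 fold change below 0 and 2 above, at a median of −0.77 and a range of −4.07 to 2.35. At an unadjusted p under 0.05, 7 were lower in PC-EV samples, against 2.95% of all genes, and none was higher. None passed an adjusted p of 0.05. The most abundant, Klra2 and Klra17, had levels of 23.5 and 11.1 and log2 fold changes of −0.06 and −0.02. Their approximate standard errors were 0.16 and 0.18. Klrd1 and Klrc1, the chains of a receptor for nonclassical MHC class I, were at −1.15 and −1.13 with levels of 0.365 and 0.268. Here the approximate standard errors were larger, 0.55 and 0.53. This family was looked at after its values had been seen. The part of T and NK cells in these values was not tested.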
